A study of Rattus norvegicus with 48 samples.

Results

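MiR-451 and miR-144 are the microRNAs best known from red blood cells, and their level in a brain library is commonly read as a sign of how much blood the tissue held. Here 5 names were looked up in a table of small RNA sequencing values from rat brain: the mature miR-451-5p, its hairpin precursor mir-451, the mature miR-144-3p, its hairpin precursor mir-144, and miR-486. Of these 5 names, 4 had a row among the 1063 names of the table (612 mature names, the rest precursor names), and all 4 were above 0 in all 48 libraries. MiR-486 was not analysed here.

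The libraries came from the amygdala and the ventral striatum of Long Evans rats of both genders at postnatal day 42. Each library was made from a pool of 3 rats, per the study's methods, and both regions were taken from the same rats, so libraries of the 2 regions are not independent animals. The dams had been injected with ethanol or with saline on gestational day 12, and the offspring lived from weaning on day 21 either with littermates (non-enriched) or with unfamiliar rats of the same gender from an untreated dam (socially enriched). Each region therefore had 4 treatment groups, saline non-enriched, ethanol non-enriched, saline socially enriched and ethanol socially enriched, with 3 female and 3 male pools (F1 to F3, M1 to M3) in each. All rats were anesthetized and decapitated, and no washing of blood from the vessels was described. In whole tissue, fewer red cells and less of these miRNAs per cell cannot be told apart.

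Both miRNAs lie in a single gene cluster that is switched on as red cells mature. MiR-144-3p is cut from its hairpin by Dicer in the usual way. The mir-451 hairpin is too short for Dicer and is instead cut by Argonaute 2, after which the 3′ end is trimmed, so miR-451 is made from the 5p side of the hairpin and reaches into its loop. In the RefSeq annotation of GRCr8 the hairpins stand 89 bases apart on the plus strand of chromosome 10, outside any protein-coding gene, with Flot2 and Eral1 as the nearest genes on either side. The sequences are given to show how the arms differ in place. The hairpins are printed 5′ to 3′ with the annotated 5p and 3p arms in capitals, mir-144 at chr10:63459397-63459479 and mir-451 at chr10:63459569-63459640.
mir-144: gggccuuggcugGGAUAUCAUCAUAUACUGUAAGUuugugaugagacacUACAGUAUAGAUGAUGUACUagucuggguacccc
mir-451: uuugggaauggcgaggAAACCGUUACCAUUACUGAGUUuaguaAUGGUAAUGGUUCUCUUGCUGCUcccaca
The stretch between the annotated arms held 14 bases in mir-144 and 5 bases in mir-451. The mature forms are printed with the seed, bases 2 to 8, in capitals.
miR-451-5p: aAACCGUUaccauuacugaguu
miR-144-3p: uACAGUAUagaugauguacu
miR-101a-3p: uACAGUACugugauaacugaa
No other of the 693 rat mature names in RefSeq had the seed of miR-451-5p or that of miR-144-3p. The brain miRNAs miR-101a-3p and miR-101b-3p share bases 2 to 7 with miR-144-3p and differ from it at base 8. In these libraries miR-101a-3p was far more abundant, at 310.5 ± 43.5 RPM (SD, n = 48; RPM are reads scaled to the same library total) against 15.6 ± 6.61 RPM for miR-144-3p, and it was the higher of the pair in 48 of 48 libraries.

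All 4 members had low RPM and few reads, though their places were near the middle of the names of their kind. Mature names and precursor names each sum to 1000000 RPM in every library, so RPM compares names within each kind only, and a read can count for a hairpin and again for its mature arm. Over the 48 libraries mir-451 ranged from 13.1 to 80.9 RPM, with a median of 31.4 RPM. Its place was 238 among the precursor names ordered by mean RPM. The mir-144 hairpin ranged from 7.71 to 41.5 RPM around a median of 19.1 RPM and stood at place 264.

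The mature forms were also low in RPM, and also near the middle of the names of their kind. MiR-451-5p ranged from 1.98 to 14.9 RPM (median 6.91 RPM), which was place 324 of 612 mature names, and miR-144-3p from 5.98 to 32.8 RPM (median 14.2 RPM), place 284. In reads this meant 7 to 88 reads per library for mir-451, 6 to 52 for mir-144, 1 to 18 for miR-451-5p and 4 to 35 for miR-144-3p. MiR-144-3p was the higher of the mature forms although mir-451 was the higher of the hairpins. The libraries held 363141 to 1370412 mature reads, recovered from the value that 1 read takes in each library, and a change in miR-451-5p of a few reads was therefore a large change in RPM.

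The reads of mir-451 were mostly not counted under either of its arms. Summed over the 48 libraries the hairpin had 1835 reads, while miR-451-5p had 343 reads and miR-451-3p 13 reads, together 19.4% of the hairpin's reads (95% Wilson interval 17.7 to 21.3%, counting error only). The hairpin of mir-144 had 1074 reads, with 702 under miR-144-3p and 248 under miR-144-5p, or 88.5% (86.4 to 90.2%). The share ran from 6.06 to 43.5% between libraries for mir-451 and from 66.7 to 100% for mir-144, so the ranges did not overlap. By region, the share of mir-451 was 19.1% (amygdala) and 19.7% (ventral striatum).

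Across the 206 hairpins with a single locus name and at least 500 reads, the median share under the arms was 83.9%, with quartiles of 38.4 and 97.8%. The share was lower than that of mir-451 in 32 of these hairpins, so mir-451 lay toward the low end without being alone there. Some of the 206, such as mir-218b and mir-222, had a row for a single arm only, unlike mir-451 and mir-144. Reads from their other arm counted as outside the arms. In 4 hairpins the share was above 100%, so the median and quartiles are a rough scale. The place of the remaining mir-451 reads on the hairpin was not analysed here. The row of the mir-451 hairpin, with 1835 reads against 343, rests on more reads and is used most below. How far it stands for the mature miR-451 was not tested.

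**Figure D1:**
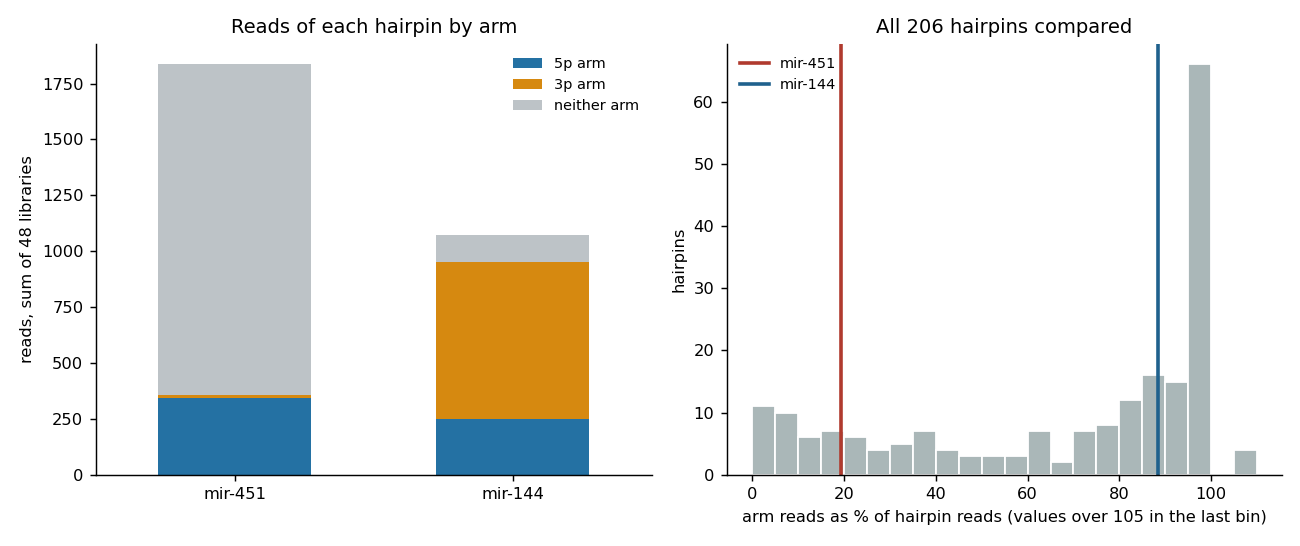
The left panel stacks the reads of each hairpin, summed over 48 libraries, into those counted under the 5p arm, the 3p arm and neither arm. Of 1835 mir-451 reads 1479 fell under neither arm, against 124 of 1074 for mir-144. The right panel is a histogram of the share of hairpin reads counted under the arms, in percent, for 206 hairpins, with vertical lines at mir-451 (19.4%) and mir-144 (88.5%).

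The choice of arm also separated the hairpins. Of the arm reads of mir-451, 3.65% (2.15 to 6.15%) were of the 3p arm, which was seen in 10 of 48 libraries and never with more than 3 reads. Of the arm reads of mir-144, 73.9% (71.0 to 76.6%) were of the 3p arm, the usual guide strand of miR-144. The 5p arm was the higher in 48 of 48 libraries for mir-451 and in 0 of 48 for mir-144.

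The hairpins varied together from library to library. The highest mir-451 value, 80.9 RPM (76 reads), was in the amygdala pool F1 of the ethanol non-enriched group, where mir-144 was at 27.7 RPM. The lowest, 13.1 RPM (14 reads), was in pool F3 of the same group and region, where mir-144 was at 9.35 RPM. The reads of mir-451 outnumbered those of mir-144 in 48 of 48 libraries, and mir-451 took 63.1% of their joint reads, from 52.1 to 76.3% between libraries.

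After the mean of each of the 16 groups of 3 libraries was subtracted on the log2(RPM + 1) scale, the deviations of mir-451 and mir-144 correlated with Pearson r = 0.75 and Spearman rho = 0.75 over 48 libraries (permutation p = 1e-05, the smallest that 100000 permutations can give, and adjusted p = 2e-05 and 2.4e-05 over the 12 relations computed). Without the 2 libraries farthest from the median of mir-451, r was 0.73. Within the amygdala r was 0.83 (rho 0.76, n = 24, permutation p = 1e-05). Within the ventral striatum r was 0.63 (rho 0.59, n = 24, permutation p = 0.00101), and 0.48 without the 2 farthest libraries. The permutations did not allow for the group means that had been subtracted, so the p-values of correlations, here and below, are too small. The relation between the hairpins was positive in each region.

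The mature forms also correlated, but more weakly and with fewer reads behind the values. MiR-451-5p and miR-144-3p correlated with r = 0.49 (rho 0.47, n = 48, permutation p = 4e-04, adjusted p = 0.000533). The value was 0.57 in the amygdala (permutation p = 0.00355) and 0.41 in the ventral striatum (permutation p = 0.0452). In the ventral striatum rho was 0.37 (permutation p = 0.0808), and r fell to 0.31 without the 2 farthest libraries. With p-values that are too small, the relation there was not taken as shown. Each hairpin also followed its own mature form, at r = 0.74 for mir-451 with miR-451-5p and r = 0.90 for mir-144 with miR-144-3p (n = 48, permutation p = 1e-05 for each), but these names share reads.

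**Figure D2:**
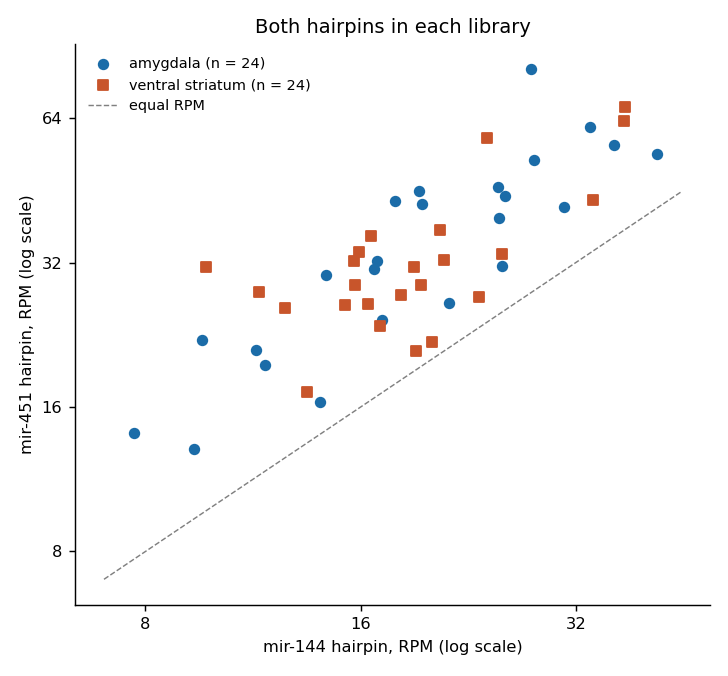
Each point is a library, with the RPM of the mir-144 hairpin on the horizontal axis and that of the mir-451 hairpin on the vertical axis, both on log scales; blue circles are the 24 amygdala libraries and orange squares the 24 ventral striatum libraries. All 48 points lie above the dashed line of equal RPM, and the cloud rises along it in both regions.

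The spread between the libraries of a group was set beside counting error. The variance of the reads within groups, divided by the variance that counting alone gives at the depth of each library, was 5.52 for mir-451, 3.14 for mir-144, 2.24 for miR-144-3p and 1.97 for miR-451-5p, where counting error alone gives a value near 1 (32 degrees of freedom, a description). For the share of mir-451 among the joint reads of the hairpins the same quantity was 0.936.

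Set beside other miRNAs, this spread was wide. On the log2(RPM + 1) scale the SD within groups was 0.55 for mir-451, 0.56 for mir-144 and 0.58 for miR-144-3p, against a median of 0.32 over the 590 names with a mean of at least 10 RPM. Of these 590 names, 14.7% had a larger SD than mir-451, 13.7% a larger SD than mir-144 and 11.9% a larger SD than miR-144-3p. Names with few reads have a larger SD through counting alone, and the members have few. The deviations of the members had correlations of 0.09 to 0.13 with those of the log2 number of mature reads.

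No member passed the test for a difference between ethanol and saline pools. In the amygdala of non-enriched rats, mir-451 was at 42.3, 44.1, 46.1, 80.9, 32.3 and 13.1 RPM in the ethanol pools (M1 to M3, then F1 to F3) and at 43.1, 19.6, 31.5, 41.7, 21.1 and 45.05 RPM in the saline pools. The groups overlapped, with means of 43.1 ± 22.1 and 33.7 ± 11.3 RPM (SD, n = 6), and both the highest and the lowest pool were of the ethanol group. The log2 difference was 0.24 (SE 0.35, exact permutation p = 0.413).

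In the amygdala of socially enriched rats the means of mir-451 were 33.3 ± 19.4 RPM with ethanol and 38.1 ± 14.4 RPM with saline (SD, n = 6), a log2 difference of -0.31. In the ventral striatum they were 31.6 ± 6.40 and 26.7 ± 7.42 RPM in non-enriched rats (log2 difference 0.26), and 34.8 ± 16.4 and 40.5 ± 16.3 RPM in enriched rats (log2 difference -0.22). The mir-144 means lay between 17.8 and 24.6 RPM over the 8 groups, and its log2 differences for ethanol were 0.09, -0.30, 0.09 and -0.15 in the same order of comparisons. Groups overlapped in each of these comparisons.

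Social enrichment was compared with non-enriched housing in the same way. The largest difference of any member over the 8 treatment comparisons was that of mir-451 in the ventral striatum of saline rats. Enriched pools were at 32.4, 26.2, 63.2, 25.7, 58.3 and 37.4 RPM (F1 to F3, then M1 to M3) and non-enriched pools at 33.4, 17.2, 28.8, 36.4, 23.7 and 20.9 RPM. The enriched pools F3 and M2 stood above all the others, and the remaining pools overlapped. The means were 40.5 ± 16.3 and 26.7 ± 7.42 RPM (SD, n = 6), a log2 difference of 0.54 (95% interval -0.01 to 1.09, limma p = 0.0553 and adjusted p = 1 over 933 names, exact permutation p = 0.0931).

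The other members had smaller differences. In the same comparison mir-144 had a log2 difference of 0.23, miR-144-3p of 0.25 and miR-451-5p of -0.15. In ethanol rats of the same region the difference of mir-451 was 0.06, and in the amygdala it was 0.16 in saline and -0.39 in ethanol rats. Without pool F3 of the enriched saline group the difference in the ventral striatum was 0.36 (limma, adjusted p = 1).

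Taken over the 8 treatment comparisons, limma called 0 of 4 members in any, and it called 0 of the 910 names tested in the amygdala and 0 of the 933 in the ventral striatum (0%), while 17 to 41 names per comparison had an unadjusted p under 0.05. The 32 log2 differences of the members lay between -0.39 and 0.54 (SE 0.26 to 0.44), and each 95% interval held 0, the outermost bounds being -1.20 and 1.09. The smallest adjusted p was 0.889. The 32 exact permutation tests of 6 against 6 pools gave p from 0.0931 to 0.963, in a design that can reach 0.00216, and the groups overlapped in all 32. The comparisons of a region share groups. The other rows of the same hairpins were not called either: the largest difference of miR-144-5p was -1.31 (amygdala, ethanol against saline in enriched rats, limma adjusted p = 1), and miR-451-3p, at 0 in most libraries, differed by at most 0.23 in the ventral striatum and had too few values above 0 to be fitted in the amygdala. The test of whether the effect of ethanol differed between housings gave log2 differences of -0.55 to -0.10 for the members and called 0 of 4, and 0% of all names in either region (24 and 35 names at unadjusted p under 0.05).

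**Figure D3:**
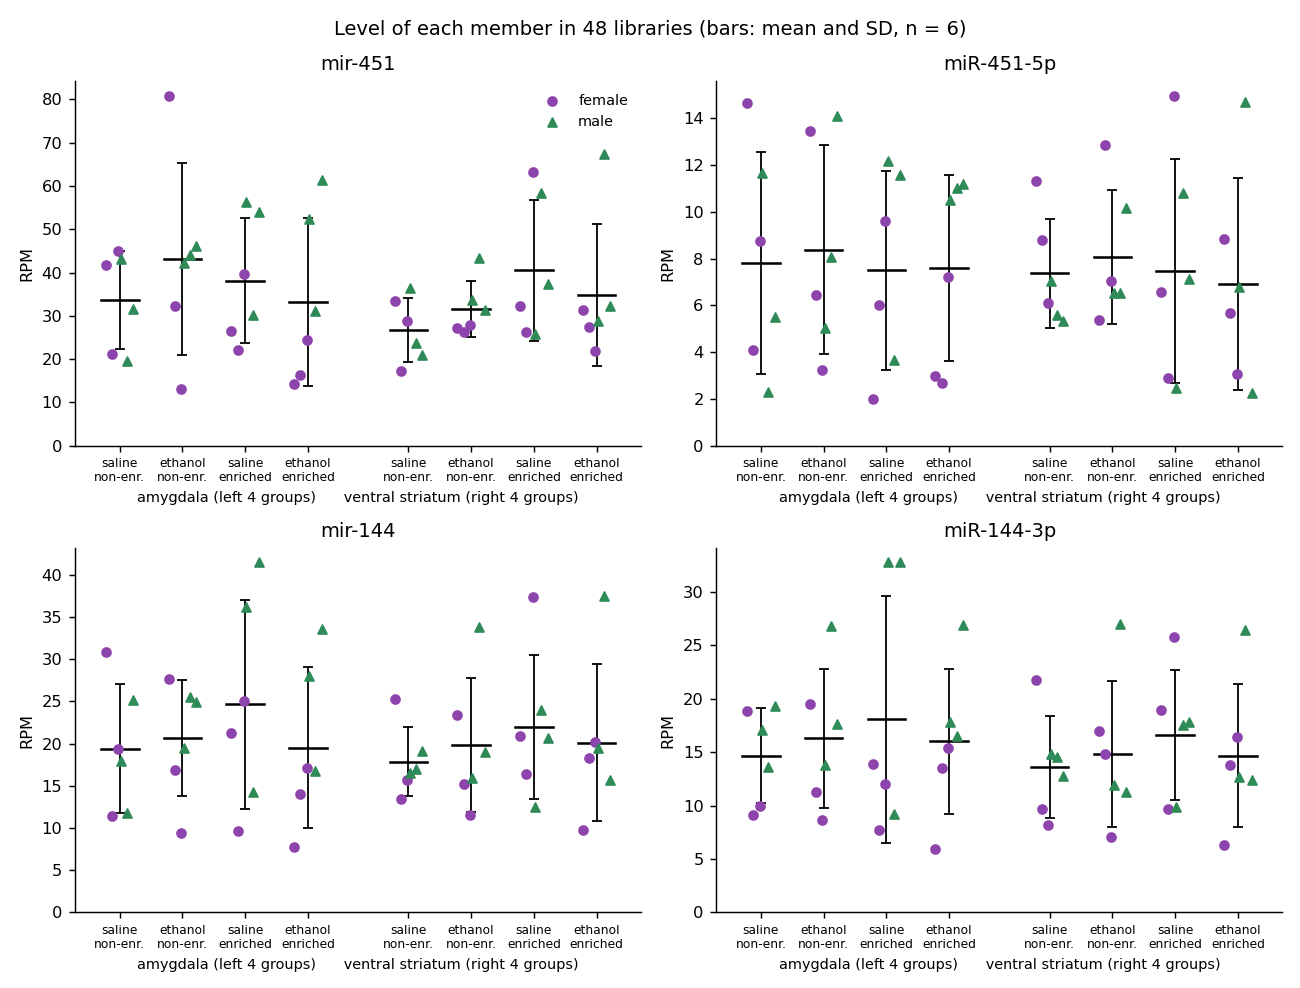
Each panel is a member and each point a library, with RPM on the vertical axis and the 4 treatment groups of the amygdala (left) and of the ventral striatum (right) on the horizontal axis; circles are female and triangles male pools, and bars are the mean and SD of 6. The 8 groups of each panel overlap, and for mir-451 the highest and the lowest points (80.9 and 13.1 RPM) are in the same group.

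The members had close means in the 2 regions. The mir-451 mean was 37.0 ± 16.7 RPM in the amygdala and 33.4 ± 12.8 RPM in the ventral striatum (SD, n = 24), and that of mir-144 was 21.1 ± 8.96 and 19.9 ± 7.36 RPM. MiR-144-3p was at 16.3 ± 7.37 and 14.9 ± 5.84 RPM, and miR-451-5p at 7.83 ± 4.09 and 7.45 ± 3.54 RPM. Limma gave log2 differences (ventral striatum minus amygdala) of -0.08 (95% interval -0.40 to 0.24) for mir-451, -0.03 (-0.36 to 0.30) for mir-144, -0.09 (-0.43 to 0.25) for miR-144-3p and -0.01 (-0.45 to 0.42) for miR-451-5p. It called 0 of 4 members, in a comparison in which it called 276 of 968 names (28.5%). This fit took the libraries of both regions as independent, although the regions share rats. With the library-number pair as a random block the differences were the same, and 0 of 4 members were called. The interval of mir-451 was then -0.39 to 0.23.

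Pools of the 2 regions with consecutive library numbers, which belong to the same gender and treatment, were compared as pairs. The regions share rats, but which rats went into which pool is not given in the sources used here. The permutation p-values given here are too small, as above, since group means had been subtracted. Over these 24 pairs the deviations correlated with r = 0.03 for mir-451 (rho 0.08, permutation p = 0.884), r = 0.16 for mir-144 (rho 0.15, permutation p = 0.462), r = 0.23 for miR-144-3p (rho 0.25, permutation p = 0.272) and r = -0.11 for miR-451-5p (rho -0.07, permutation p = 0.604), with adjusted p of 0.806 or more over the 4 members. Paired by the replicate number of the title, 21 of the 24 pairs are the same, but miR-144-3p then gave r = 0.46 (permutation p = 0.0237) and mir-144 r = 0.35 (permutation p = 0.0924), while mir-451 had a permutation p of 0.998 and miR-451-5p gave r = -0.08 (permutation p = 0.726).

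Mean levels were lower in females than in males for the 4 members, and none passed the correction. Over both regions mir-451 was at 30.8 ± 15.2 RPM in females and 39.6 ± 13.3 RPM in males (SD, n = 24), a log2 difference of -0.40 (SE 0.16, limma p = 0.0145, permutation p = 0.0387). MiR-144-3p was at 13.1 ± 5.28 and 18.1 ± 6.99 RPM, a log2 difference of -0.44 (SE 0.17, limma p = 0.0123, permutation p = 0.00828). The mir-144 hairpin was at 18.2 ± 7.37 and 22.8 ± 8.38 RPM, a log2 difference of -0.32 (SE 0.16, limma p = 0.0506, permutation p = 0.0523). MiR-451-5p was at 7.28 ± 3.92 and 8.004 ± 3.70 RPM, a log2 difference of -0.14 (limma p = 0.504, permutation p = 0.506). Since the regions share rats, the fit was repeated with the library-number pair as a random block, which gave the same differences with SE of 0.16 to 0.22. The permutation tests take the 48 libraries as independent. The adjusted p was 1 for each in both fits, and 0 of 968 names were called (0%), with 38 at unadjusted p under 0.05. Of all names 2.38% were lower in females at unadjusted p under 0.05, and 2 of the 4 members were among them. The 4 members are not separate observations, since the hairpins varied together and each mature form shares reads with its hairpin.

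The genders were then compared within each region, a split chosen after the values were seen. In the amygdala mir-451 ranged from 13.1 to 80.9 RPM around a median of 25.4 RPM in 12 female pools, and from 19.6 to 61.3 RPM around 43.6 RPM in 12 male pools. MiR-144-3p ranged from 5.98 to 19.6 RPM (median 11.6 RPM) in females and from 9.19 to 32.8 RPM (median 17.7 RPM) in males. The groups overlapped for each member. MiR-144-3p had a log2 difference of -0.68 (SE 0.23, limma p = 0.00871, permutation p = 0.00298), mir-451 of -0.55 (limma p = 0.0399, permutation p = 0.0992), mir-144 of -0.50 (limma p = 0.0604, permutation p = 0.0507) and miR-451-5p of -0.41 (limma p = 0.202, permutation p = 0.203).

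None of these was called after adjustment over 910 names (adjusted p = 0.988 for each, 0% of names called), and 2.42% of names were lower in females at unadjusted p under 0.05. In the ventral striatum the log2 differences were between -0.25 and 0.12, with the smallest limma p at 0.190 and 0% of names called. The difference between the regions in this respect was not called either (log2 differences of -0.53 to -0.30, limma adjusted p = 1 for each, 0% of names called). With each amygdala library left out in turn, the value of mir-451 ran from -0.71 (without the ethanol non-enriched pool F1) to -0.40 (without pool F3 of the same group). Its unadjusted limma p was under 0.05 in 9 of 24 fits. The count was 24 of 24 for miR-144-3p, 7 for mir-144 and 0 for miR-451-5p. No member was called in any of these fits.

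**Figure D4:**
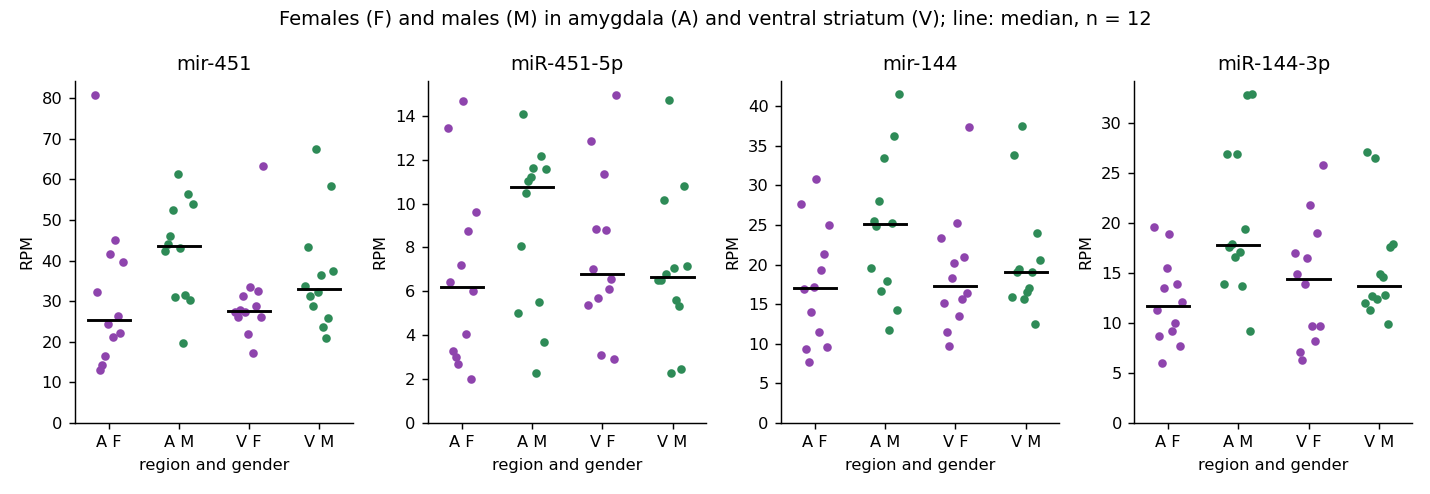
Each panel is a member, each point a library, with RPM on the vertical axis and the females (F) and males (M) of the amygdala (A) and ventral striatum (V) on the horizontal axis; lines are medians of 12. In the amygdala the male median lies above the female median in all 4 panels (43.6 against 25.4 RPM for mir-451), and the points overlap.

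**Figure D5:**
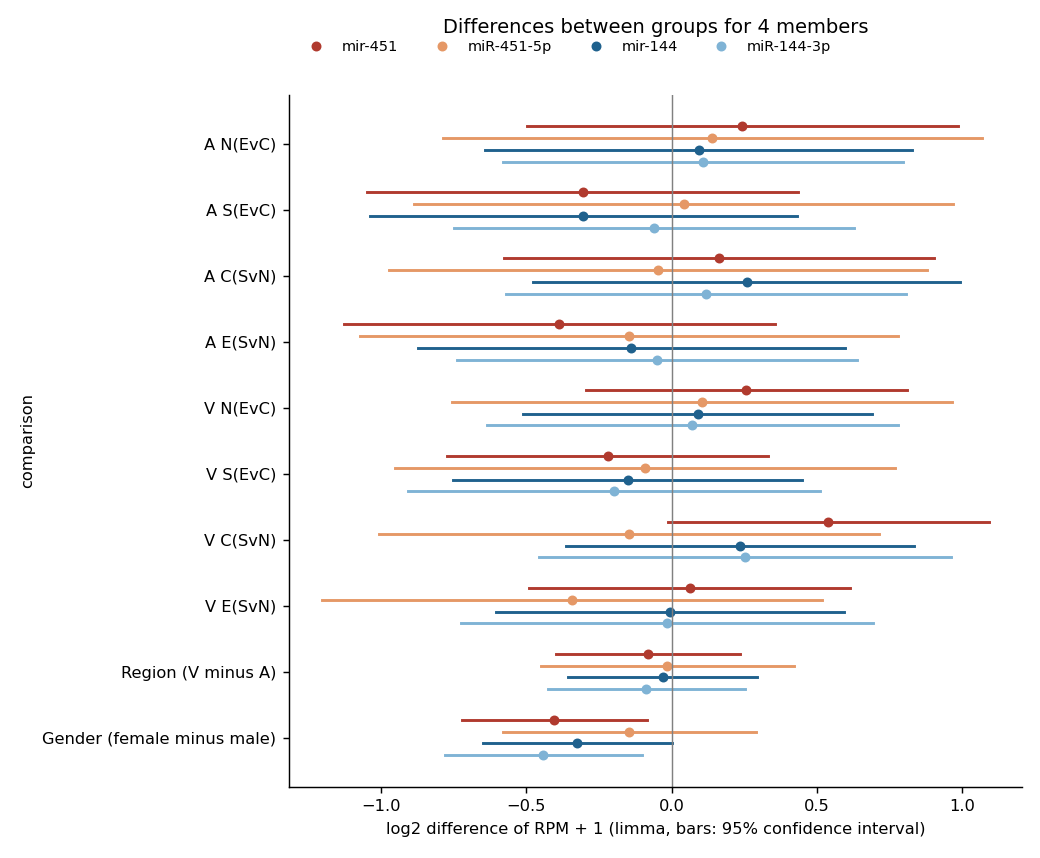
Points are log2 differences of RPM + 1 from limma and bars their 95% intervals, for 4 members in 8 treatment comparisons, the comparison of regions and that of genders. A is amygdala and V ventral striatum; N(EvC) and S(EvC) set ethanol against saline in non-enriched and enriched rats, and C(SvN) and E(SvN) set enriched against non-enriched housing in saline and ethanol rats. The intervals leave out 0 only for mir-451 and miR-144-3p between genders.

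Other miRNAs of blood and vessels were set beside the members. MiR-16-5p, abundant in red cells and made by most other cells too, was at 6172 ± 901 RPM (SD, n = 48), and its deviations had a correlation of -0.12 with those of mir-451. Over the 7 miRNAs that are abundant in red cells and are also made elsewhere this correlation ran from -0.12 to 0.38 (miR-25-3p), a description over the same 48 libraries. Summed, these 7 were at 28231 to 40416 RPM in amygdala females and at 30670 to 42821 RPM in amygdala males. Most of the sum was miR-22-3p, at 29826 ± 4153 RPM over the 48 libraries. Between genders 0 of 7 had an unadjusted p under 0.05. Of all names, 38 of 910 in the amygdala and 38 of 968 over both regions did. Between regions 2 of 7 were called, miR-16-5p (log2 difference 0.27) and miR-25-3p (0.23), both higher in the ventral striatum, a share close to the 28.5% called among all names.

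The white cell and microglial miRNAs listed differed widely in level. MiR-223-3p, which defines myeloid blood cells, was at 0 in 40 of 48 libraries, with a mean of 0.217 RPM. MiR-142-3p, of blood lineages and microglia, was at 2.97 ± 1.85 RPM. The other arm of its hairpin, miR-142-5p, was at 226 ± 41.8 RPM and no lower than 154 RPM. MiR-146a-5p was at 1325 ± 256 RPM. MiR-150-5p, of lymphocytes, was at 392 ± 71.5 RPM and had a correlation of -0.52 with mir-451 and -0.27 with mir-144. The endothelial and platelet miRNA miR-126a-5p was at 2947 ± 790 RPM, with a correlation of 0.38 with mir-451 and 0.10 with mir-144. For miR-126a-3p these correlations were 0.21 and -0.05. Over the 6 white cell and microglial miRNAs the correlation with mir-451 ran from -0.52 to 0.33 (miR-142-3p). None of these 6, of the 2 endothelial or of the 2 smooth muscle miRNAs listed was called between regions (28.5% of all names were). None had an unadjusted p under 0.05 between genders in the limma fit, where 38 of 968 names did over both regions.

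Neuronal markers were abundant in these brain libraries. The neuronal miR-9a-5p, miR-128-3p and miR-124-3p were at 31733 ± 4664, 5285 ± 1621 and 2311 ± 373 RPM. MiR-122-5p, a liver miRNA that plasma carries, was at 1.00 ± 1.03 RPM. MiR-204-5p, of the choroid plexus, ranged from 3085 to 122453 RPM, and the sum of both choroid plexus names was at 3092 to 122604 RPM in the amygdala against 3804 to 6968 RPM in the ventral striatum. Between regions 1 of 2 choroid plexus names (miR-204-5p, log2 difference -1.13) and 1 of 3 neuronal names (miR-128-3p, -0.41) were called, both higher in the amygdala. Of all names 28.5% were called in this comparison, so counts from such short lists say little. The correlation of miR-204-5p with mir-451 was 0.30, and with mir-144 0.39. The part of blood, vessels or choroid plexus in the levels of the members was not tested.

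The names most like miR-451-5p were sought among all others. Among 587 names with a mean of at least 10 RPM, members aside, the highest correlations of deviations over the 48 libraries were those of miR-31a-5p (r = 0.56), miR-24-2-5p (0.56), mir-31a (0.54), mir-27a (0.47) and miR-27a-3p (0.45). MiR-27b-3p, mir-27b, mir-99a, miR-99a-5p and mir-182 followed, down to 0.41. The members stood at 0.74 (mir-451), 0.56 (mir-144) and 0.49 (miR-144-3p) on the same scale. MiR-31a-5p, miR-24-2-5p and mir-31a thus stood above miR-144-3p, so its correlation with miR-451-5p is not particular to the pair. For mir-451, whose row holds more reads, the highest of the 587 were mir-199a (0.52), miR-27b-3p (0.52) and mir-10b (0.51), all below its correlation with mir-144.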

How the data were processed

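Small RNA was size-selected (TruSeq) and sequenced on a MiSeq. Libraries were multiplexed in sets, per the study's methods. Which libraries shared a set is not given in the sources used here, so sets were not fitted. Per the study's methods, the authors trimmed reads by quality, aligned them with Bowtie to the Rn5 genome in Partek Flow, counted them against miRBase 21 and divided by library totals. The deposited signal of each name is in RPM, with mature and precursor names scaled to 1000000 separately. Some reads were divided between names as fractions, but all 192 member values were whole reads (within 0.02 read). At least 92.1% of low mature values and 85.9% of low precursor values per library were whole, so no count test was run. Depth was read from the value that 1 read takes.

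Rows sharing a name were summed (1129 rows, 1063 names). Groups came from the labels. Differences were fitted by limma 3.58.1 (R 4.3.3, trend) on log2(RPM + 1), which understates changes of low names, for names above 0 in at least 6 libraries, with Benjamini-Hochberg adjustment over all names and calls at an adjusted p under 0.05. The test was checked on simulated amygdala data, with shifts larger than any log2 difference of the members. The check does not cover differences of the size seen in the members. Single values were also tested by two-sided permutation of RPM (exact for 6 against 6, otherwise 100000 resamples; scipy 1.17.1). Both regions were taken from the same rats, and which rats went into which pool is not given in the sources used here. Nothing says that the pools of a group came from separate litters, so p-values measure the spread between these pools. Named were the members in every comparison, other rows of the same hairpins, the listed marker miRNAs and the 10 names most correlated with miR-451-5p. The members and lists were chosen with earlier results of these data known. Wilson intervals cover counting error only, and limma intervals rest on the spread between pools.

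Replicate numbers were checked for pairing within region and gender: the median correlation of deviations over 36 pairs of libraries was 0.00068 (amygdala) and 0.0018 (ventral striatum), with 12 and 16 pairs above 0.1, so they were not taken to pair the libraries. Alternatives were other pseudocounts, filters and scalings, unlogged RPM, a depth term, a replicate block, pairs of library numbers, each library left out and, added after seeing the data, a term marking the 8 shallowest amygdala libraries.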

Additional observations from a re-analysis of the deposited data

Results flagged for a closer look

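In 1 of 32 groups of 6 libraries (4 members in 8 groups of region and treatment), a library stood apart from the rest by Dixon's 95% limit, at which chance marks about 1 in 20 groups. It was the ventral striatum pool M2 of the ethanol socially enriched group, where mir-451 was at 67.4 RPM against 32.3 RPM in the next pool and 21.9 RPM in the lowest. In the same pool mir-144 was at 37.5 RPM, miR-144-3p at 26.5 RPM and miR-451-5p at 14.7 RPM, each the highest of its group of 6.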

How the results depend on the processing

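No member was called in any comparison under any alternative (smallest adjusted p 0.539 under the planned settings, 0.618 with a term for the 8 shallowest amygdala libraries, added after the data were seen, and 0.281 with a library left out). With the replicate block 0 of the 60 member values were called either (smallest adjusted p 0.757), the call counts stayed at 0 outside the comparison of regions, and the replicate numbers were not taken to pair the libraries. Depth limits what can be seen: miR-451-5p rests on 1 to 18 reads per library.

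Counts of all names called stayed at 0 outside the comparison of regions, except 1 name in A E(SvN) with a pseudocount of 0.1, and 0 to 1 names with a library left out in A N(EvC), A E(SvN), V N(EvC), V S(EvC), V E(SvN), ethanol by housing and gender in each region, gender over both regions and gender by region. Of 513 member values under the other alternatives 7 changed sign, none of them called: miR-451-5p in V C(SvN) was at 0.107 RPM with unlogged values, miR-144-3p in V E(SvN) at 0.012 with median-ratio rescaling and 0.035 with a depth term, and mir-144 in V E(SvN) at 0.0015 with a pseudocount of 10, 0.024 with rescaling, 0.017 with a depth term and 0.286 RPM with unlogged values. Paired by the replicate number of the title, the correlation between regions was 0.46 for miR-144-3p and -0.00048 for mir-451. For miR-144-3p the unadjusted permutation p was now under 0.05, but such p-values are too small, as said above. The cause of these changes was not tested. The other 30 alternative correlations kept their direction and side.

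With a library left out, 98 of 1728 member values changed sign, all uncalled log2 differences near 0. For miR-144-3p the ranges were -0.025 to 0.41 for A C(SvN), -0.17 to 0.14 for A E(SvN), -0.045 to 0.26 for A N(EvC), -0.35 to 0.13 for A S(EvC), -0.46 to 0.023 for ethanol by housing in the amygdala, -0.20 to 0.18 for V E(SvN) and -0.12 to 0.27 for V N(EvC). For miR-451-5p the ranges were -0.29 to 0.21 for A C(SvN), -0.36 to 0.079 for A E(SvN), -0.10 to 0.38 for A N(EvC), -0.21 to 0.24 for A S(EvC), -0.36 to 0.15 for ethanol by housing in the amygdala, -0.083 to 0.059 for the comparison of regions, -0.40 to 0.10 for V C(SvN), -0.054 to 0.23 for V N(EvC), -0.36 to 0.20 for V S(EvC), -0.47 to 0.10 for ethanol by housing in the ventral striatum and -0.025 to 0.26 for gender in the ventral striatum. For mir-451 the ranges were -0.0043 to 0.30 for A C(SvN), -0.076 to 0.56 for A N(EvC) and -0.12 to 0.18 for V E(SvN). For mir-144 the ranges were -0.33 to 0.041 for A E(SvN), -0.086 to 0.28 for A N(EvC), -0.087 to 0.015 for the comparison of regions, -0.18 to 0.15 for V E(SvN), -0.064 to 0.22 for V N(EvC) and -0.33 to 0.011 for V S(EvC).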
